A study of Homo sapiens with 6 samples.

Results

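SF3A1, SF3A2, SF3A3, SF3B1, SF3B2, SF3B3, SF3B4, SF3B5 and PHF5A encode subunits of the SF3 complex of the U2 small nuclear ribonucleoprotein (U2 snRNP). They were chosen by name, as 9 of the 19571 genes in the deposited expression table. The same gene names account for 28 of 52139 deposited splicing events with coordinates. RNA was sequenced from LNCaP cells, a human line of prostate cancer cells that respond to androgen. The tested cells stably expressed Flag-tagged KDM4B, a histone lysine demethylase, and the cells they were set against carried the empty plenti6 vector. The libraries labelled KDM4B numbered 3 (replicates 1, 2 and 4) and the vector libraries 3 (replicates 1, 2 and 3). Both kinds of cell spent the last 3 days before harvest in RPMI with 10% CFBS, an abbreviation that the labels do not spell out. The labels do not say whether a line was a clone or a pool, nor whether replicates were separate cultures, so p-values reflect the spread between these samples alone, and that spread may be technical.

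The U2 snRNP recognises the branch site of an intron early in the assembly of the spliceosome. Its SF3a part (SF3A1, SF3A2 and SF3A3) joins to the U2 RNA, and its SF3b part clamps the duplex of branch site and U2 RNA. SF3B1 is the scaffold of SF3b, is often mutated in blood cancers and uveal melanoma, and is the target of small-molecule splicing modulators. SF3B3 and SF3B5 are also subunits of SAGA, a chromatin-modifying coactivator.

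SF3B3 was the member that rose on every scale examined, and SF3A2 and SF3A3 stood at the other end of the complex. As deposited, in FPKM (fragments scaled to transcript length and library size), SF3B3 was higher in the KDM4B-labelled libraries by 0.23 on the log2 scale, while SF3A2, SF3A3, SF3B5 and PHF5A were lower. After each library was divided by its median ratio to the average library, 6 members were higher and 0 were lower. The direction for SF3B5 turned with that scaling, the lower calls of SF3A2, SF3A3 and PHF5A were lost, and the fold changes of SF3B1, SF3B4 and PHF5A changed sign, so both scales are given for the members. Relative to the median gene, SF3A2 and SF3A3 did not pass the test. In bulk RNA such as this, fewer cells of a type and less RNA per cell cannot be told apart.

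The reason that both scales are needed is visible in the libraries. Ribosomal RNA genes made up 8.14 to 10.5% of the summed FPKM in the KDM4B-labelled libraries and 0.144 to 0.473% in the vector libraries, and all 8 RNAs listed as lacking a poly(A) tail were higher in the KDM4B-labelled libraries. The median gene of the deposited table was lower in the KDM4B-labelled libraries by a log2 fold change of -0.22, and after scaling that median was -0.00048. Library composition and the label cannot be told apart. KDM4B itself had 26.33, 27.17 and 25.76 FPKM in the KDM4B-labelled libraries, against 24.73, 25.15 and 25.28 FPKM in the vector libraries. The groups did not overlap, but the difference of 0.07 (log2; SE 0.039) did not pass limma's test (adjusted p = 0.113); after scaling it was 0.31 (adjusted p = 1.93e-05). The libraries are therefore called by their labels. Summed over skipped exon (SE) events, which share reads, the counts came to 14212396 to 14787321 in KDM4B-labelled libraries and 16451082 to 17021204 in vector libraries. The LNCaP markers KLK3 and FOLH1 were expressed in every library, with KLK3 at 394 to 471 FPKM and FOLH1 at 354 to 364 FPKM in the KDM4B-labelled libraries, and KLK3 at 2162 to 2260 FPKM and FOLH1 at 290 to 305 FPKM in the vector libraries. Of markers of other cell types, the KDM4B-labelled libraries had sums of 2.82 to 3 FPKM for 2 fibroblast genes, 1.76 to 2.03 FPKM for 3 leukocyte genes, 0.39 to 0.45 FPKM for 2 endothelial genes and 0.05 to 0.15 FPKM for the basal gene KRT14. The vector libraries had 2.32 to 2.43, 2.07 to 2.39, 0.85 to 1.01 and 0.1 to 0.41 FPKM for the same lists. The part of such cells in the results was not tested.

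The promoters of the SF3a genes are shown because SF3A2 and SF3A3 moved together as deposited and SF3A1 did not move with them. They run from 250 bases before to 50 bases after the transcription start, are written 5′ to 3′ on the gene's own strand, and come from RefSeq on build GRCh38.p14. SF3A1 lies at chr22:30356845-30357144 on the minus strand, SF3A2 at chr19:2236574-2236873 on the plus strand and SF3A3 at chr1:37989973-37990272 on the minus strand. Capitals mark matches, on either strand, to any of the motifs searched.
SF3A1: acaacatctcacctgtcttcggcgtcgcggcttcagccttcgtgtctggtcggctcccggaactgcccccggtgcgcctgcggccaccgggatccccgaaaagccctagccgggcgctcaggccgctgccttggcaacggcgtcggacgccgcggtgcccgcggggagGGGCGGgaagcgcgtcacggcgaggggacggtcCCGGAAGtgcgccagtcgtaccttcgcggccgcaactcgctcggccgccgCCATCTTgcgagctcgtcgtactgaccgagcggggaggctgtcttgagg
SF3A2: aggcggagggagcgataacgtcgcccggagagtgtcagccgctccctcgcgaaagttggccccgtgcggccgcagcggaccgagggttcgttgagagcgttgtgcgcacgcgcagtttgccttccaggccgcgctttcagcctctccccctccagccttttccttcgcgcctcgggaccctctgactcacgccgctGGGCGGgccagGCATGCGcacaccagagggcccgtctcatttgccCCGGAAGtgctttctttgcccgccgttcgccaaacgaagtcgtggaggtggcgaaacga
SF3A3: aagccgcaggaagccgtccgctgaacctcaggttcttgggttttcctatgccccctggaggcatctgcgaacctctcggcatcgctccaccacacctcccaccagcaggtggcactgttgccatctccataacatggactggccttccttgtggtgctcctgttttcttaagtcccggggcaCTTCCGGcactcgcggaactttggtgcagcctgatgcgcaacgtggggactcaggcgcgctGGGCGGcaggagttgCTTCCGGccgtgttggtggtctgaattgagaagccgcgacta
Each of the 3 held the ETS-type motif CCGGAAG or its reverse complement, starting at -49 in SF3A1, at -9 in SF3A2, and at both -68 and 9 in SF3A3. Each also held the GC box GGGCGG, at -82, at -54 and at -7 in SF3A1, SF3A2 and SF3A3. SF3A1 also held the reverse complement of the YY1-type core AAGATGG, at 2, and SF3A2 the NRF1-type core GCATGCG, at -43. Positions give the leftmost base of a match, with the first transcribed base as 1 and the base before it as -1.

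Promoters were found for 7 of the 9 members; SF3B3 and PHF5A were not in the sequence table. CCGGAAG was found in 5 of the 7 (the SF3a genes, SF3B2 and SF3B4), and in 10.7% of 27305 promoters of the same length. GGGCGG was found in 5 of the 7 and in 44.6% of all promoters. AAGATGG was found in 3 of the 7 (SF3A1, SF3B2 and SF3B4) and in 6.06% of all promoters. This motif and GCATGCG were shortened to their cores after first matches were seen, so their member counts are no measure of enrichment. GCATGCG (4.13% of all promoters) was in SF3A2, the E-box CACGTG (7.43%) in SF3B1 and the box CCAAT (35.7%) in SF3B5, 1 member each. The TATA box TATAAA was in 0 of the 7 windows and in 11.95% of all promoters. No matches in the 3 sequences shown overlapped each other. The member promoters had 57.3 to 71.7% G and C, against a median of 58.3% over all promoters. Whether any of these motifs bears on the level of a gene was not tested.

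All 9 members passed the filter of a mean of at least 1 FPKM. As deposited, 1 of 9 was higher and 4 of 9 were lower at an adjusted p below 0.05 (limma), and 4 did not pass. Over all 12148 genes tested 13.4% were higher and 60.3% lower. With only 9 members, their counts lie near those shares and were not tested against them. The median log2 fold change of the 9 was -0.05. After scaling, 6 of 9 were higher, against 34.1% of all genes tested; 0 of 9 were lower by limma, with 0 lower at an unadjusted p below 0.05, against 33.9% of all genes tested. The median of the 9 was then 0.19.

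SF3B3, a propeller-shaped scaffold protein of SF3b, had 27.7, 29.02 and 27.09 FPKM in the KDM4B-labelled libraries, against 23.37, 23.52 and 23.97 FPKM in the vector libraries. Every KDM4B-labelled library was above every vector library. The means were 27.9 ± 0.987 FPKM in the KDM4B-labelled libraries and 23.6 ± 0.312 FPKM with the vector (SD, n = 3 each), a log2(FPKM + 1) fold change of 0.23 (SE 0.041; limma, adjusted p = 0.000313). Scaled values were 30.4 ± 0.644 in the KDM4B-labelled libraries and 21.7 ± 0.261 with the vector, a log2 fold change of 0.47 (SE 0.035, adjusted p = 1.04e-06). Both calls held when any 1 library was left out, with adjusted p from 0.000413 to 0.0017 as deposited and from 4.08e-06 to 1.59e-05 after scaling. SF3B3 lies at chr16:70523816-70577668 on GRCh38, where the annotation also places the small nucleolar RNAs SNORD111 and SNORD111B inside it.

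SF3B1, the scaffold that holds the branch-site helix, had 71.11, 74.11 and 73.3 FPKM in the KDM4B-labelled libraries, against 71.79, 76.1 and 72.85 FPKM in the vector libraries. The groups overlapped, and the log2 fold change of -0.01 did not pass (SE 0.038; limma, adjusted p = 0.745). After scaling SF3B1 was higher by 0.23 (SE 0.032, adjusted p = 0.000124). SF3B2, which binds SF3B4 within SF3b, had 123.23, 119.16 and 119.57 FPKM in the KDM4B-labelled libraries, against 117.21, 118.73 and 116.64 FPKM in the vector libraries. Its groups did not overlap but lay close together, with a log2 fold change of 0.04 that did not pass (SE 0.033; limma, adjusted p = 0.322). After scaling it was higher by 0.28 (SE 0.033, adjusted p = 3.33e-05).

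SF3B4, an RNA-recognition-motif protein that contacts the intron near the branch site, averaged 44.9 ± 2.35 FPKM in the KDM4B-labelled libraries and 46.6 ± 1.25 FPKM in the vector libraries. The groups overlapped, and the log2 fold change of -0.05 did not pass (SE 0.045; limma, adjusted p = 0.31), while after scaling it was higher by 0.19 (adjusted p = 0.00132). SF3B5, the smallest gene of the 9, was the member whose call changed sign. It had 128.18, 135.96 and 130.29 FPKM in the KDM4B-labelled libraries, against 140.14, 144.02 and 141.14 FPKM in the vector libraries. As deposited every KDM4B-labelled library was below every vector library, and SF3B5 fell by 0.11 (log2, SE 0.035; limma, adjusted p = 0.0156). That call was lost without KDM4B replicate 1 (adjusted p = 0.0601), without vector replicate 2 (adjusted p = 0.0653) and with a replicate block (adjusted p = 0.1004). The block rests on replicates 1 and 2 of each group alone. After scaling SF3B5 was higher by 0.13 (SE 0.027, adjusted p = 0.00147). PHF5A, the small zinc-binding protein that sits beside SF3B1, had 19.45, 21.62 and 20.05 FPKM in the KDM4B-labelled libraries, against 23.67, 23.19 and 23.34 FPKM in the vector libraries. The groups did not overlap as deposited, and PHF5A fell by 0.19 (log2, SE 0.046; limma, adjusted p = 0.00264). After scaling the groups overlapped and the difference was 0.04 (adjusted p = 0.355). PHF5A has 7 named pseudogenes in the RefSeq table, so its reads could have been split between copies.

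The 3 genes of SF3a did not behave alike. SF3A1, whose SURP domains tie SF3a together, had 35.56, 36.05 and 33.26 FPKM in the KDM4B-labelled libraries, against 33.12, 33.86 and 33.99 FPKM in the vector libraries. The groups overlapped as deposited, with a log2 fold change of 0.05 that did not pass (SE 0.042; limma, adjusted p = 0.275), and after scaling SF3A1 was higher by 0.29 (SE 0.038, adjusted p = 6.39e-05). SF3A2, a zinc finger protein of SF3a, had 47.62, 50.18 and 44.48 FPKM in the KDM4B-labelled libraries, against 57.11, 58.69 and 55.3 FPKM in the vector libraries. SF3A3, the zinc finger subunit that contacts the U2 RNA, had 36.81, 38.85 and 37.06 FPKM in the KDM4B-labelled libraries, against 48.25, 44.77 and 45.68 FPKM in the vector libraries. For both genes every KDM4B-labelled library was below every vector library. SF3A2 fell by 0.26 (log2, SE 0.047; limma, adjusted p = 0.000364) and SF3A3 fell by 0.29 (SE 0.042, adjusted p = 6.52e-05). After scaling the groups overlapped for both, and the log2 fold changes were -0.02 (adjusted p = 0.645) for SF3A2 and -0.05 (adjusted p = 0.221) for SF3A3. SF3A1 overlaps CCDC157 in the annotation, SF3A2 has 1 named pseudogene and SF3A3 has 2, so their reads could have been shared. SF3B4 also has 1 named pseudogene, and SF3B1 and SF3B2 each overlap 1 small nucleolar RNA in the annotation.

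**Figure D1:**
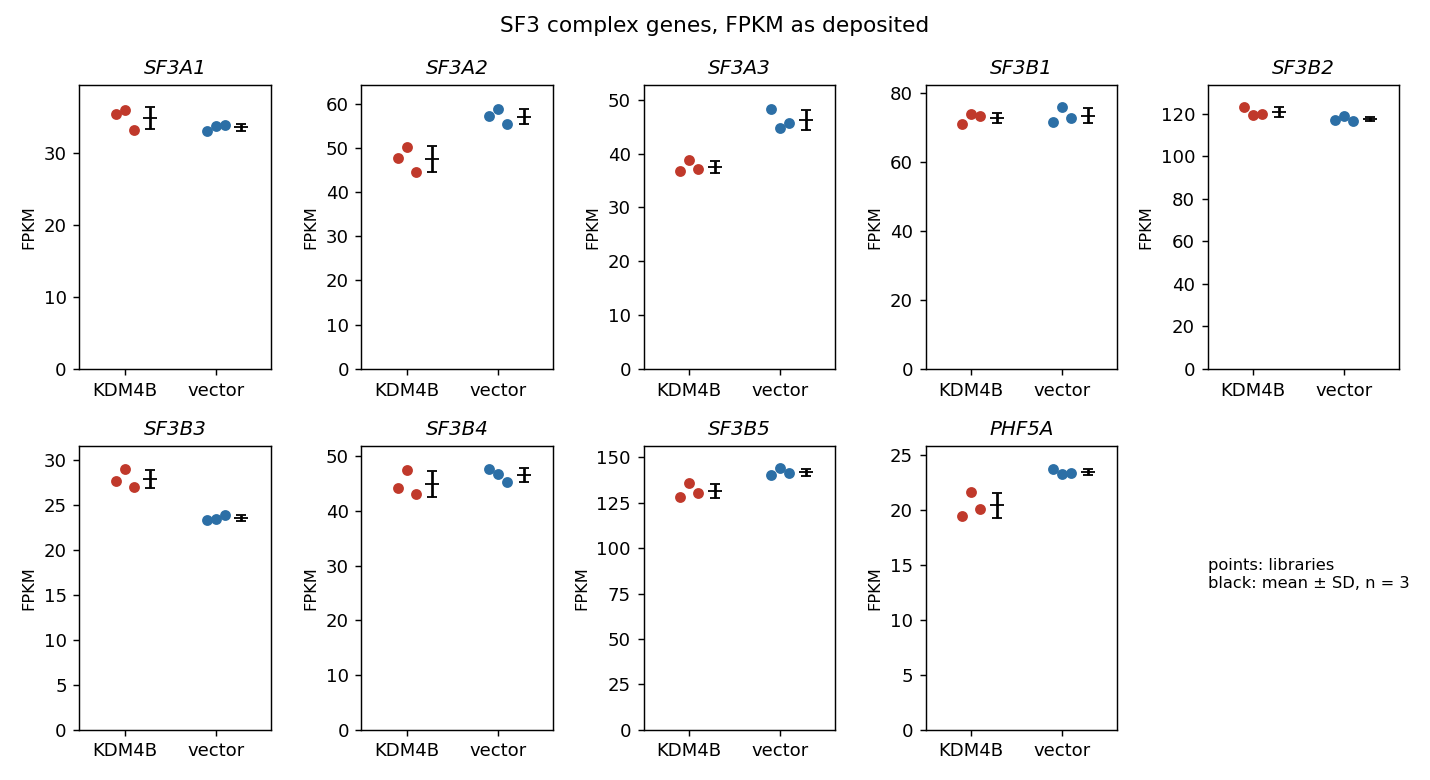
FPKM as deposited (vertical axis, from 0) of each SF3 gene in the 3 KDM4B-labelled libraries (red points, left) and the 3 vector libraries (blue points, right), with the mean and SD in black. SF3B3 is the gene whose KDM4B-labelled libraries (27.09 to 29.02 FPKM) stand clearly above its vector libraries (23.37 to 23.97 FPKM), and SF3A2, SF3A3, SF3B5 and PHF5A lie below theirs.

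The plot of FPKM by library shows 2 genes whose groups did not overlap with the KDM4B-labelled libraries above (SF3B2 and SF3B3) and 4 with them below. Over all genes tested, 14.6% did not overlap with the KDM4B-labelled libraries above and 61.7% with them below. After scaling, 6 members did not overlap and were above (35.8% of all genes), 0 were below (35.9% of all genes), and 3 overlapped.

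**Figure D2:**
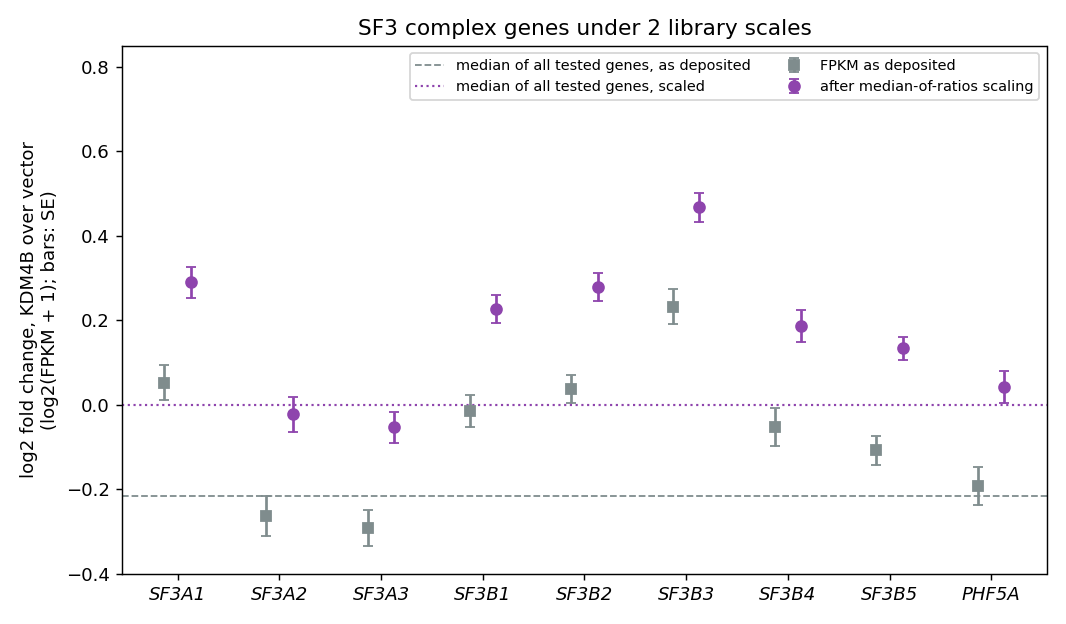
Log2(FPKM + 1) fold change of each SF3 gene, KDM4B over vector, as deposited (grey squares) and after median-of-ratios scaling (purple circles); bars are standard errors and the lines mark the median of all tested genes on each scale. SF3B3 lies highest on both scales (0.23 and 0.47), and SF3A2 and SF3A3 lie lowest on both.

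The plot of fold changes on both scales keeps the order of the members, since scaling moved all of them up by nearly the same amount. SF3A2, SF3A3 and PHF5A lay near the median of all genes on either scale, and the other 6 lay above it.

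The level of each gene relative to the rest of the complex does not depend on how a library is scaled. The summed FPKM of the 9 genes was 538 ± 12.7 in the KDM4B-labelled libraries and 563 ± 5.84 in the vector libraries (SD, n = 3 each), and after scaling 585 ± 6.63 with the KDM4B label and 517 ± 5.28 with the vector. SF3B3 made up 5.19, 5.25 and 5.13% of the sum in the KDM4B-labelled libraries, against 4.16, 4.13 and 4.29% in the vector libraries. The gap between the groups was several times the spread within either. SF3A3 made up 6.98 ± 0.0743% in the KDM4B-labelled libraries and 8.21 ± 0.361% in the vector libraries. SF3A2 made up 8.81 ± 0.344% in the KDM4B-labelled libraries and 10.1 ± 0.199% in the vector libraries. PHF5A made up 3.78 ± 0.135% with the KDM4B label and 4.15 ± 0.0733% with the vector. SF3A1 and SF3B2 took larger shares with the KDM4B label (6.49 ± 0.184% and 22.4 ± 0.781%) than with the vector (5.97 ± 0.104% and 20.9 ± 0.0323%). SF3B5 took 24.4 ± 0.362% with the KDM4B label and 25.2 ± 0.210% with the vector. The groups did not overlap for these 7 genes, and they overlapped for SF3B1 and SF3B4. Such separation was common: of all genes tested after scaling, 35.8% did not overlap with the KDM4B label above and 35.9% with it below. Those are levels, and no shares within other sets of genes are given. With 3 libraries against 3, an exact two-sided permutation test cannot give a p below 0.1, so the shares are given without one.

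**Figure D3:**
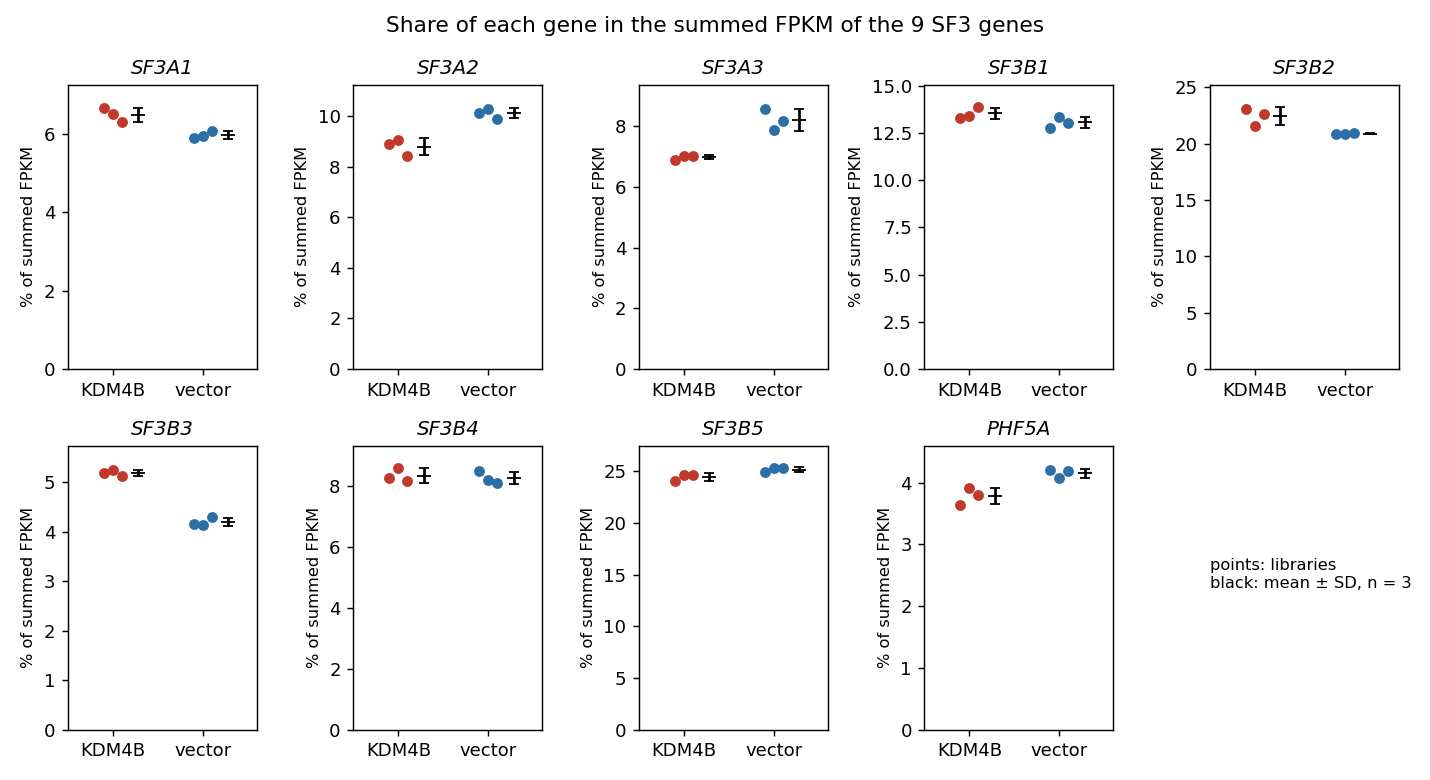
Share of each SF3 gene in the summed FPKM of the 9 genes (vertical axis, percent, from 0) in the KDM4B-labelled libraries (red, left) and the vector libraries (blue, right), with the mean and SD in black. SF3B3 takes 5.13 to 5.25% in the KDM4B-labelled libraries and 4.13 to 4.29% in the vector libraries; SF3B1 and SF3B4 overlap between the groups.

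As the plot of shares shows, SF3a as a whole took less of the sum. Its 3 genes made up 21.7 to 22.6% in the KDM4B-labelled libraries and 24.1 to 24.6% in the vector libraries, although SF3A1 alone took more. The SF3a genes summed to 120 ± 5.14 FPKM in the KDM4B-labelled libraries and 137 ± 1.79 FPKM in the vector libraries. After scaling the sums were 130 ± 4.18 with the KDM4B label and 126 ± 1.82 with the vector, and the groups overlapped. The 6 SF3b genes summed to 418 ± 8.002 FPKM with the KDM4B label and 426 ± 5.11 FPKM with the vector as deposited, and to 455 ± 2.90 and 391 ± 4.42 after scaling with the KDM4B label and the vector, so the direction of both sums turned with the scale. Some ratios, chosen after the values were seen, put these differences side by side. SF3B3 over SF3A3 was 0.731 to 0.753 in the KDM4B-labelled libraries and 0.484 to 0.525 in the vector libraries. SF3A1 over SF3A3 was 0.897 to 0.966 in the KDM4B-labelled libraries and 0.686 to 0.756 in the vector libraries. SF3B3 over SF3B1 was 0.384 ± 0.0122 with the KDM4B label and 0.321 ± 0.0107 with the vector.

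The order of levels, per length of transcript, was the same in both groups by mean FPKM. SF3B5 was highest, followed by SF3B2, SF3B1, SF3A2, SF3B4, SF3A3, SF3A1, SF3B3 and PHF5A. In the KDM4B-labelled libraries, SF3A2 and SF3B4 overlapped and no other neighbours did. In the vector libraries, SF3B4 and SF3A3 overlapped, as did SF3B3 and PHF5A. SF3B3 thus lay clear of PHF5A in the KDM4B-labelled libraries, at 27.9 against 20.4 FPKM, and level with it in the vector libraries, at 23.6 against 23.4 FPKM.

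The deposited counts of splicing events give a second reading of the same libraries, since an event's count rises both with the gene's RNA and with the splicing of its exon. The 28 member events were 24 SE events and 4 events of mutually exclusive exons (MXE), with 0 alternative 5′ splice sites and 0 retained introns among 1359 and 869 such events. SF3B3 had 10 SE events, SF3A3 6, SF3B1 3, PHF5A 2, and SF3A1, SF3A2 and SF3B2 1 each; SF3B4 and SF3B5 had none. The MXE events were 2 of SF3B3, 1 of SF3A3 and 1 of SF3B1. For all 24 SE events the table names no transcript that skips the exon, as for 86.3% of all 40622 SE events. The exons were 24 to 238 bases long, and 10 of 24 had a length that is a multiple of 3, against 41.0% of all SE exons. A library has 1 count for an event, with both splice forms in it, and the forms could be separated for 0 of the 28, so no level of exon inclusion is given. Positions are as deposited, counted from 1. Of the 24 member exons 6 lie inside their gene on GRCh38 and the others outside it. The event positions thus do not match the GRCh38 gene positions given above, and their build is uncertain.

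All 10 SF3B3 exons had more reads for their library size in the KDM4B-labelled libraries. In edgeR's quasi-likelihood test with TMM scaling (trimmed mean of M-values), 14 of the 24 member SE events were higher and 1 was lower at an adjusted p below 0.05, against 20.1% higher and 20.2% lower among 36440 events tested. The 14 were 10 of 10 in SF3B3, 2 of 3 in SF3B1, and the single events of SF3A1 and SF3B2. Events of 1 gene share its RNA and neighbouring events share reads, so they are not independent of each other. The SF3B3 log2 fold changes were 0.32 to 0.55 with a median of 0.45, with adjusted p from 1.24e-08 to 0.00246, while the median of all events was -0.0015. The groups did not overlap in CPM (counts scaled to library size) for any of the 10. The share of all SE events without overlap is not given, so this count has no background beside it.

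The 5′-most SF3B3 event, an exon of 173 bases at chr16:70564648-70564820, had the most reads. It held 753, 916 and 845 reads in the KDM4B-labelled libraries, against 713, 643 and 695 reads in the vector libraries. These are 52.9, 62.1 and 59.9 CPM with the KDM4B label, against 42.1, 38.4 and 42.2 CPM with the vector, a log2 fold change of 0.51 (SE 0.069; edgeR, adjusted p = 1.24e-08). The reads of all 3 KDM4B-labelled libraries were above those of every vector library. When 1 most-read event stood for each of 8553 genes, SF3B3 was again higher, by 0.51 (edgeR, adjusted p = 7.67e-08). In that test 4 of 7 members were higher (SF3A1 by 0.33, SF3B1 by 0.22, SF3B2 by 0.33), against 22.8% of all genes. By edgeR 0 of 7 were lower, with 0 at an unadjusted p below 0.05 and 0 by DESeq2, against 22.9% of all genes.

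**Figure D4:**
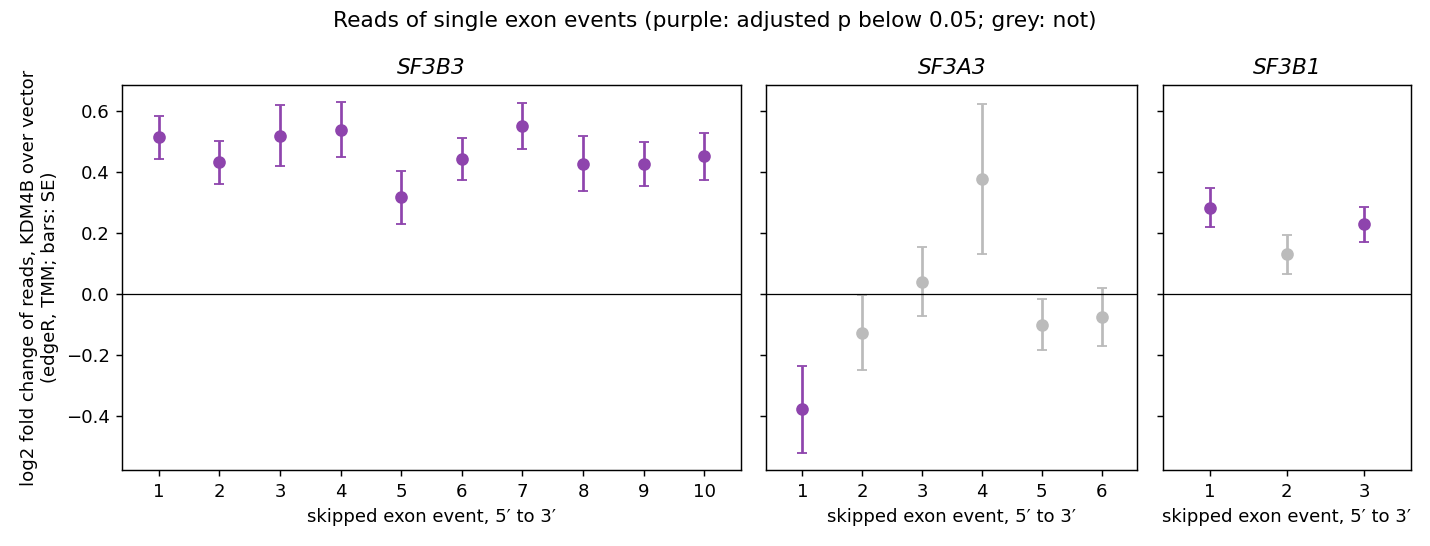
Log2 fold change of reads, KDM4B over vector, for each skipped exon event of SF3B3, SF3A3 and SF3B1 from 5′ to 3′ (edgeR with TMM; bars are standard errors). All 10 SF3B3 events are above 0 and pass at an adjusted p below 0.05 (purple), while 5 of the 6 SF3A3 events do not pass (grey).

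In the plot of exon events SF3A3 differs from SF3B3. Its 5′-most event, an exon of 48 bases at chr1:38455220-38455267, held 113, 95 and 117 reads in the KDM4B-labelled libraries, against 156, 155 and 181 reads in the vector libraries. It fell by 0.38 (log2, SE 0.143; edgeR, adjusted p = 0.0291). The call was lost with DESeq2, without KDM4B replicate 2 and without vector replicate 3. The other 5 SF3A3 events had log2 fold changes from -0.13 to 0.38, none of which passed. The event of SF3A2 (0.09, adjusted p = 0.479) and both events of PHF5A (0.10 and 0.12) did not pass either.

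The reads of each SE event were tested against the other SE reads of the gene. An event's count joins both splice forms, so a shift between inclusion and skipping could be missed. Neighbouring SE events share reads, which also pulls the SE ratios toward 0. An MXE event was set against all SE reads of its gene. Those include SE events on the same exons, so shared reads pull the MXE ratios toward 0 and a change could be missed. For the 21 SE events in genes with more than 1 and the 4 MXE events, 0 passed in either direction by edgeR, and 0 by DESeq2. At an unadjusted p below 0.05 there were 2 of the 21 SE events, both in SF3A3, and 0 of the 4 MXE events. Over all events 0.356% of 34505 SE events were higher and 0.272% lower, and 0.235% of 8952 MXE events were higher and 0.268% lower. For SF3B3 the log2 ratios of the SE events lay between -0.13 and 0.12, with standard errors from 0.058 to 0.102. All of its SE events overlapped between the groups; the 5′-most event, for instance, made up 14.2 ± 0.972% of the gene's SE reads in the KDM4B-labelled libraries and 13.7 ± 0.551% in the vector libraries.

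The 2 SF3A3 events, named here after their values were seen, pointed in opposite directions. The fourth event, an exon of 108 bases at chr1:38444392-38444499, made up 3.37, 2.73 and 3.44% of the gene's SE reads in the KDM4B-labelled libraries, against 2.07, 2.53 and 2.30% in the vector libraries. The groups did not overlap, and the log2 ratio was 0.50 (SE 0.192; edgeR, adjusted p = 0.416). It rests on 32 to 41 reads per library. The 5′-most event made up 9.28, 7.41 and 10.1% in the KDM4B-labelled libraries, against 10.1, 10.6 and 11.9% in the vector libraries, with a log2 ratio of -0.30 (SE 0.135; edgeR, adjusted p = 0.535).

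The genes that work beside SF3 at the branch site were read in the same way. Of 30 U2 partners, which are the other U2 and Sm proteins, the U2AF factors and SF3-associated proteins, 6 were higher, 14 lower and 10 did not pass as deposited (limma), against 13.4% higher and 60.3% lower over all genes tested, and their median log2 fold change was -0.08. On the scaled values 18 were higher, 2 lower and 10 did not pass, against 34.1% higher and 33.9% lower over all genes tested, with a median of 0.16, close to the 0.19 of the 9 SF3 genes. SNRPD2, a protein of the Sm ring, measured 151 ± 4.36 FPKM in the KDM4B-labelled libraries and 126 ± 5.24 FPKM in the vector libraries, and was higher by 0.26 as deposited (limma, adjusted p = 9.85e-05) and by 0.51 after scaling (adjusted p = 8.26e-07). The subunits of U2AF, which binds the 3′ splice site ahead of U2, had opposite calls as deposited and after scaling. U2AF1, which reads the terminal AG, measured 79.7 ± 0.622 FPKM in the KDM4B-labelled libraries and 103 ± 7.44 FPKM in the vector libraries, and fell by 0.36 as deposited (limma, adjusted p = 3.1e-05) and by 0.12 after scaling (adjusted p = 0.0466). On its most-read exon event the difference of -0.10 did not pass (edgeR, adjusted p = 0.187; DESeq2, adjusted p = 0.278). U2AF2, which binds the polypyrimidine tract and was named after its values were seen, measured 116 ± 3.20 FPKM with the KDM4B label and 97.5 ± 3.35 FPKM with the vector and was higher by 0.25 and 0.49 on the same scales (limma, adjusted p = 0.000124 and 6.26e-07).

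The other partners with the lowest p fell as deposited by limma. DDX42, an SF3b-associated helicase, fell by 0.31 to 48.0 FPKM in the KDM4B-labelled libraries, against 59.9 FPKM in the vector libraries. RBMX2 fell by 0.34, U2SURP by 0.28 and RBM39, the target of sulfonamide degraders, by 0.23. After scaling RBMX2 was still lower (-0.11, adjusted p = 0.0426), whereas DDX42 (-0.07), U2SURP (-0.05) and RBM39 (0.01) did not pass. On their most-read exon events none of these 4 passed, RBMX2 included (-0.11; edgeR, adjusted p = 0.537). SF3B6, the SF3b protein that touches the branch adenosine and which was grouped with the partners, measured 74.0 FPKM in the KDM4B-labelled libraries and 79.5 FPKM in the vector libraries. It fell by 0.10 as deposited (limma, adjusted p = 0.0272) and was higher by 0.14 after scaling (adjusted p = 0.0052), as SF3B5 was. The U2 RNA is hardly measured by FPKM of this kind: RNU2-1 had 4.05, 1.77 and 2.38 FPKM in the KDM4B-labelled libraries, against 1.49, 1.2 and 2.11 FPKM in the vector libraries. These groups overlapped, and the log2 fold change was 0.49 as deposited (limma, adjusted p = 0.0324) and 0.65 after scaling (adjusted p = 0.0149).

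SF3b also serves the minor spliceosome, which removes a rare class of introns. Of 13 genes listed for it, 5 were higher and 8 lower as deposited (limma; median -0.21), against 13.4% higher and 60.3% lower over all genes tested. After scaling 5 were higher, 5 lower and 3 did not pass (median -0.01), against 34.1% and 33.9% of all genes, so the lower counts lay near the background on both scales. The 5 higher genes include DHX15, which is also counted among the U2 partners, and YBX1, a general RNA-binding protein. Unlike SF3B3, its U11/U12 protein SNRNP48 was lower on both scales, at 12.8 ± 0.498 FPKM in the KDM4B-labelled libraries and 21.4 ± 0.709 FPKM in the vector libraries. It fell by 0.70 as deposited (limma, adjusted p = 1.04e-07) and by 0.47 after scaling (adjusted p = 4.2e-06); on its most-read exon event the difference was -0.24 and did not pass (edgeR, adjusted p = 0.161). ZCRB1 and ZMAT5, further U11/U12 proteins, and PDCD7 were also lower on both scales. On their most-read exon events ZCRB1 was lower by edgeR (-0.21, adjusted p = 0.0385) but not by DESeq2 (adjusted p = 0.0693), and ZMAT5 (0.08; edgeR, adjusted p = 0.771) and PDCD7 (-0.14; edgeR, adjusted p = 0.478) did not pass. ARMC7, listed with the minor spliceosome, measured 6.25 FPKM in the KDM4B-labelled libraries and 4.57 FPKM in the vector libraries and was higher by 0.38 as deposited and by 0.58 after scaling. SCNM1 fell by 0.27 as deposited and did not pass after scaling (-0.04).

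Of the members in SAGA, SF3B3 was higher on both scales, while SF3B5 fell by 0.11 as deposited and rose by 0.13 after scaling. Both were also set beside the other genes listed as subunits of SAGA. Of 23, 1 was higher, 18 lower and 4 did not pass as deposited (limma; median -0.17), against 13.4% higher and 60.3% lower over all genes tested. After scaling 7 were higher, 7 lower and 9 did not pass (median 0.07), close to the 34.1% and 33.9% of all genes. The subunit that was higher as deposited was TRRAP, the large scaffold that contacts activators, at 14.9 FPKM in the KDM4B-labelled libraries and 13.3 FPKM in the vector libraries (log2 fold change 0.15; limma, adjusted p = 0.00799), and after scaling it was higher by 0.38 (adjusted p = 3.72e-05). The 6 with the lowest p were lower on both scales. ATXN7, of the deubiquitinase module, averaged 4 FPKM in the KDM4B-labelled libraries and 6.25 FPKM in the vector libraries and fell by 0.53 as deposited and by 0.33 after scaling. SUPT7L fell by 0.47 and 0.24, KAT2B, an acetyltransferase, by 0.52 and 0.32, TADA3 by 0.37 and 0.13, TAF5L by 0.37 and 0.15, and SGF29 by 0.39 and 0.17, on the same scales. On their most-read exon events TADA3, SUPT7L and ATXN7 were lower as well (edgeR, adjusted p = 0.0162, 0.00818 and 0.0266), ATXN7 not by DESeq2 (adjusted p = 0.0555). KAT2B (0.04; edgeR, adjusted p = 0.900) and SGF29 (-0.12; edgeR, adjusted p = 0.562) did not pass there, and TAF5L had no exon event tested.

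**Figure D5:**
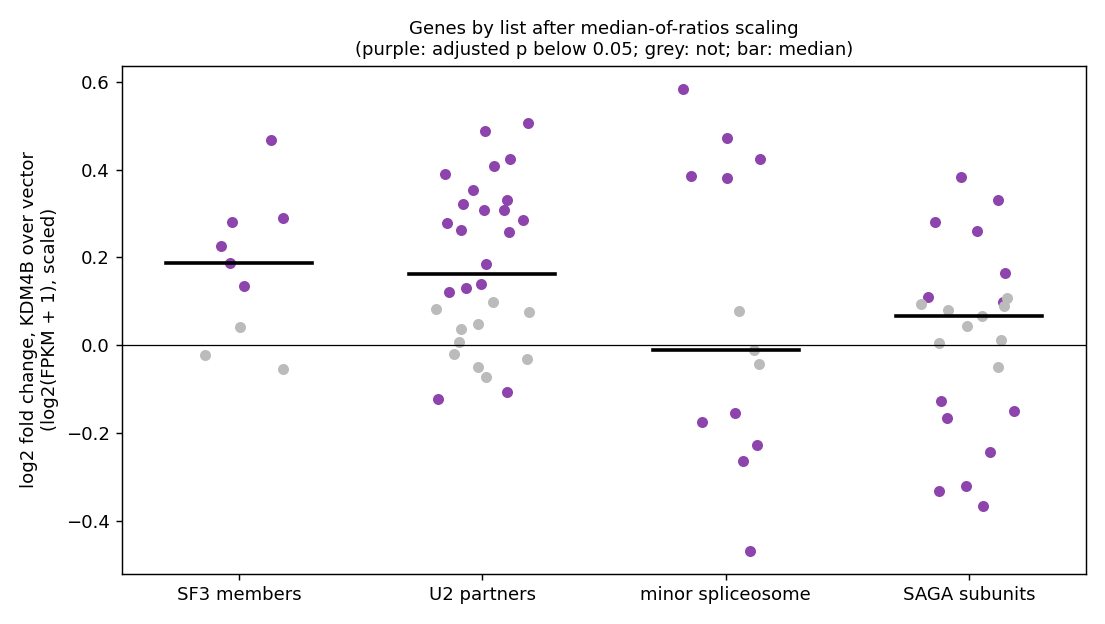
Log2(FPKM + 1) fold change after median-of-ratios scaling, KDM4B over vector, of each gene of the 4 lists; purple points pass at an adjusted p below 0.05, grey points do not, and bars are list medians. The medians are 0.19 for the SF3 members, 0.16 for the U2 partners, -0.01 for the minor spliceosome and 0.07 for the SAGA subunits.

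In the plot of lists the SF3 members and the U2 partners have few or no called genes below 0, and the minor spliceosome and SAGA have calls on both sides. The difference between lists was not tested.

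The genes whose profile over the 6 libraries was most like that of SF3B3 were F11R, DNAJC13, STX4, WDR77 and STAT3. Likeness was the root mean square difference of the log2 profiles after centring each gene, over 6531 genes with a mean of at least 10 FPKM. It was 0.00964 for F11R, a tight-junction adhesion protein, and 0.0126 to 0.0158 for the other 4. F11R had 38.49, 41.11 and 37.62 FPKM in the KDM4B-labelled libraries, against 32.81, 33.02 and 33.52 FPKM in the vector libraries.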

How the data were processed

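RNA-seq libraries of LNCaP cells were grouped by title and genotype labels, 3 labelled KDM4B and 3 vector. RNA was extracted with Trizol, per the labels' protocols. The submitters' processing notes name HISAT, StringTie, Cufflinks and build GRCh38 but give no role or version for any of them. The caller of the splicing events was not given in the sources used here. Per the file headers, the authors deposited FPKM per gene, which carry no counts, and raw read counts per splicing event.

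Expression was tested on log2(FPKM + 1), which understates changes of low genes, for genes with a mean of at least 1 FPKM, with limma 3.58.1 (R 4.3.3, mean-variance trend), two-sided, with Benjamini-Hochberg adjustment over all genes at 0.05. For scaled values a median of ratios was computed per library (0.904, 0.942 and 0.914 with the KDM4B label, 1.09 in all 3 vector libraries) and divided out. Event reads and event shares were tested with edgeR 4.0.16 (glmQLFit, glmQLFTest) for at least 10 reads in each library; alternatives used DESeq2 1.42.0. The test of single event reads was added after seeing the data.

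The count of an SE event joins both splice forms: where 2 SE events and an MXE event use the same exons (3247 sets), 19478 of 19482 differences (99.98%) were exactly even and not negative. No member event was in such a set, so the planned test of splice forms was not run for members. The MXE table has 1 event without coordinates, which was not used.

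The limma test and the event-share tests were checked on simulated data. The members, lists and tests were chosen with earlier results of these data known. Named genes were the members, up to 6 genes of lowest p in each other list, KDM4B, U2 RNA genes and the 5 profiles most like SF3B3; named events were the most-read event of each member and those that passed a test, with 2 SF3A3 events added. Promoter motifs for YY1 and NRF1 were shortened to their cores after first matches were seen. Of the motifs searched, 1 is not reported here. Replicate numbers 1 and 2 occur in both groups. Deviations of libraries with the same number correlated at -0.024 and 0.135, and those of libraries with different numbers at -0.155 to 0.104. Such values cannot settle whether the numbers pair the libraries, and the main tests did not treat them as pairs. CENATAC and SGF29 appear in the table under older symbols.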

Additional observations from a re-analysis of the deposited data

How the results depend on the processing

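SF3B3 kept its direction and its call as deposited under every alternative run: scaling, pseudocount, filter, trend, replicate block, each library left out, and both tests on exon reads. The replicate block compares replicates 1 and 2 alone, since replicate 3 occurs only with the vector and replicate 4 only with the KDM4B label. The counts of calls turned with the scale. Of the members, 1 was higher and 4 lower as deposited, against 6 and 0 after scaling by median of ratios or by the sum of all genes but ribosomal RNA, and 4 and 0 on the most-read exon event by edgeR and DESeq2 (7 tested). Under the same 4 settings, U2 partners were higher in 18, 18, 14 and 14 cases (6 as deposited; 30 tested, 28 in the exon tests) and lower in 2, 2, 0 and 0 (14 as deposited). Minor spliceosome genes were lower in 5, 5, 1 and 0 cases (8 as deposited; 13 tested, 8 in the exon tests) and higher in 2 and 2 of 8 in the exon tests (5 as deposited). SAGA subunits were higher in 7, 6, 4 and 3 cases (1 as deposited; 23 tested, 17 in the exon tests) and lower in 7, 7, 3 and 2 (18 as deposited). DESeq2 called 0 member exon events lower, where edgeR called 1. Apart from the scales' own construction, the cause was not tested.

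Directions reversed for SF3B1 (0.23 and 0.22 scaled, 0.22 and 0.22 on exon reads), SF3B4 (0.19 and 0.18 scaled), SF3B5 (0.13 and 0.12 scaled), PHF5A (0.041 and 0.031 scaled, 0.10 and 0.10 on exon reads) and RBM39 (0.0070 by median of ratios, 0.12 and 0.12 on exon reads). On exon reads alone they reversed for SF3A2 (0.083 and 0.083), U2SURP (0.026 and 0.027), ZMAT5 (0.077 and 0.078) and KAT2B (0.045 and 0.044). Shares near 0 reversed for PHF5A exon 2 (-0.015 with DESeq2, -0.019 without normalization factors, -0.012 with the replicate block), SF3A3 exon 5 (-0.021, -0.023 and -0.075) and SF3B1 exon 3 (-0.023 against exons that do not overlap it). SF3B4's share of the complex differed by -0.0048 percentage points when SF3B5 was left out of the sum.

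With 1 library left out, members higher stayed at 1 and members lower ran from 3 to 4; U2 partners ran from 5 to 7 higher and 9 to 14 lower (9 without KDM4B replicate 1), minor spliceosome genes were 5 higher and 6 to 8 lower, and SAGA subunits 1 to 2 higher (2 without KDM4B replicate 1) and 14 to 16 lower. Member exon events were 14 higher and 0 to 1 lower (0 without KDM4B replicate 2 or vector replicate 3). Values that crossed 0 ran from -0.0315 to 0.0100 for SF3B1, -0.047 to 0.0176 for SF3A2 after scaling, -0.0855 to 0.186, -0.107 to 0.083 and -0.0061 to 0.0757 for the shares of PHF5A exon 2, SF3A3 exon 5 and SF3B1 exon 3, and -0.0562 to 0.184 percentage points for SF3B4's share of the complex. In the replicate block, vector replicate 3 and KDM4B replicate 4 have no counterpart and add nothing to the comparison. It left members at 1 higher and 3 lower, since SF3B5 was lost (-0.11; limma, adjusted p = 0.1004). U2 partners stood at 5 and 10, minor spliceosome genes at 4 and 7, and SAGA subunits at 1 and 13. Whether same-numbered libraries were handled as pairs is not known. The test of splice forms and its alternatives were not run, since no member event had separable forms.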
